A study of Mus musculus with 32 samples.

Results

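Macrophages treated to induce arginase and medium short of arginine, both with antigen-stimulated helper T cells, were set directly against each other. The comparison takes the 48 h arrays with antigen whose titles name the cytokine pretreatment or 1% arginine, which is 6 of the 32 arrays of the series, 3 in each group. The labels state that the pretreatment was meant to induce arginase-1. All cells were CD4+ T cells of the cervical and axial lymph nodes of Balb/c mice carrying the DO11.10 T cell receptor transgene, which recognizes a peptide of ovalbumin (OVA). They were cultured with that peptide on peritoneal macrophages elicited by thioglycollate. For the pretreated group, the macrophages received 10 ng/mL each of IL-4 and IL-10 for 12 to 16 h and were then washed and given new medium, for which the labels name no reduced amino acid. For the low arginine group, RPMI-SILAC medium held arginine at 1% of its normal amount. Viable single CD4+ cells were sorted after 48 h, and macrophages were present until then.

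Arginine is a substrate of protein synthesis and of arginase, which IL-4 induces in macrophages together with Chil3, Retnla and Mrc1, the genes of so-called alternative activation. A cell short of an amino acid accumulates uncharged tRNA, which activates the kinase GCN2 and, through it, the transcription factor ATF4. ATF4 raises genes of amino acid synthesis, amino acid uptake and stress signalling. T cells that recognize antigen normally enter the cell cycle, secrete IL-2 and increase glucose use.

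The MoGene-2_0-st arrays gave log2 expression values for 22180 genes. Differences are the pretreated mean minus the low arginine mean on that log2 scale, ± the standard error (SE), with 3 arrays in each group. The spread behind each SE and p-value was estimated with limma from all 8 groups and 23 arrays at 48 h. A gene was called at a Benjamini-Hochberg adjusted p below 0.05 over all genes. Arrays correlated at 0.978 to 0.982 within the pretreated group, at 0.987 to 0.990 within the low arginine group, and at 0.969 to 0.983 between the groups. The labels do not say whether replicates were cultured separately or came from different mice. A p-value therefore covers only the variation among arrays within the fitted groups, and 3 arrays in each compared group limit the precision. Submitter IDs put the pretreated and full-medium arrays in a range other than that of all low amino acid arrays, so that range and the groups compared here cannot be told apart.

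The label of CD4+ T cells was checked against T cell markers. Cd3e, a chain of the T cell receptor complex, lay at 11.27, 11.58 and 11.52 on pretreated macrophages and at 11.81, 11.87 and 11.94 in low arginine. Cd4 lay between 9.41 and 10.16 on pretreated macrophages and between 9.93 and 10.23 in low arginine. Neither gene was called, although the Cd3e levels of the groups did not overlap. Of 14 measured genes of a CD4 T cell identity list, 2 were called lower on pretreated macrophages, Cd28 and Cd6, and the median difference was -0.23. Of the 14 differences, 12 were negative. For 7 genes every pretreated array lay below every low arginine array, against 9.22% of all genes. At an unadjusted limma p below 0.05 there were 6, all lower. The Cd6 call was lost without any 1 array other than pretreated replicate 3 (adjusted p up to 0.181).

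In all, 748 genes differed, which is 3.37% of those tested: 337 (1.52%) were higher on pretreated macrophages and 411 (1.85%) were lower. Each count of called list or family members in this comparison is to be read beside these shares. A difference of at least 1 was reached by 99 of the genes called higher and 177 of those called lower. The groups of arrays did not overlap for 743 of the called genes, against 18% of all genes, but the calls were made on these same arrays. The median difference over all genes was -0.0037. Called genes numbered 409 without pretreated replicate 1, 447 without replicate 2 and 796 without replicate 3. They numbered 422, 466 and 383 without low arginine replicate 1, 2 and 3. The plot of mean levels shows the rises spread over many kinds of genes, with macrophage genes, Kcnma1, Egln3 and Il2 farthest above the diagonal, and genes of mitosis below it.

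**Figure D1:**
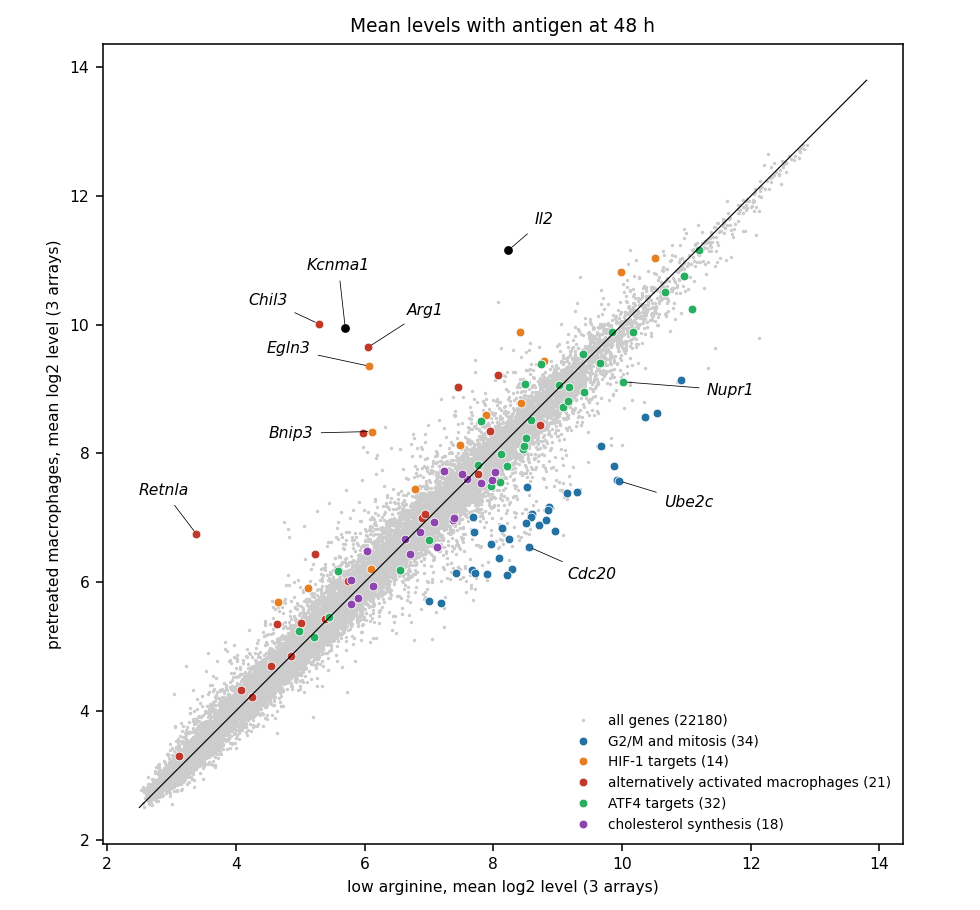
Mean log2 level of each of 22180 genes in low arginine (horizontal axis, 3 arrays) and on pretreated macrophages (vertical axis, 3 arrays), with genes of 5 lists in colour, Kcnma1 and Il2 in black, and the line of equal levels. Chil3 lies 4.73 above the line and Ube2c 2.38 below it, while the ATF4 targets and the cholesterol synthesis genes lie near the line.

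The largest rise was in a gene of alternatively activated macrophages. Chil3, a secreted chitinase-like protein, measured 10.03, 10.42 and 9.59 on pretreated macrophages, against 5.25, 4.89 and 5.73 in low arginine. Every pretreated array lay far above every low arginine array, a difference of 4.73 ± 0.25 (adjusted p = 6.65e-11), or 26.5-fold. Arg1, the arginase that the pretreatment was meant to induce, measured 9.46, 10.29 and 9.21 on pretreated macrophages, against 6.24, 6.10 and 5.83 in low arginine. The groups again did not overlap (3.60 ± 0.24, adjusted p = 4.64e-09). With antigen in full medium, Arg1 measured 8.19, 7.84 and 7.41, between both groups. Retnla, a secreted resistin-like protein, measured 7.02, 6.97 and 6.26 on pretreated macrophages, against 3.34, 3.35 and 3.47 in low arginine (3.36 ± 0.26, adjusted p = 7.12e-08). Its levels did not overlap either.

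The start region of Retnla is shown because it is 1 of 3 called genes of this group with a letter match to the palindrome that STAT6, the transcription factor of IL-4 signalling, is known to bind. The palindrome, TTC and GAA with any 4 bases between them, reads alike on both strands and is in capitals at position -145 from the annotated start. The sequence is RefSeq's on GRCm38.p6, chr16:48842359-48842658, plus strand. Among 6 genes of the alternative activation list that were called higher and had a promoter entry, 3 held the palindrome, against 8.01% of all genes with one and 6.95% of all promoters. Uncalled members of the list were not counted, so this share describes the list and not the calls. A match is a description of letters and not of binding.
Retnla: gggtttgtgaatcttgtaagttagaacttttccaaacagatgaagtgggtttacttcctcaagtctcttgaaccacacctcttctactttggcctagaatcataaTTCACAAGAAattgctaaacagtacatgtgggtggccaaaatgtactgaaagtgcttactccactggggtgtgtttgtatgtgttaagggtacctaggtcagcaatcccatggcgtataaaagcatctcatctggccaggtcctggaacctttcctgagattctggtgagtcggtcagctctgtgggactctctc

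Of 21 measured genes of alternatively activated macrophages, 8 were called higher and none lower, with a median difference of 0.27. Mrc1, the mannose receptor, rose by 1.21 ± 0.22 (adjusted p = 0.00246). Ccl22, a chemokine of macrophages and dendritic cells, measured 7.95, 8.21 and 8.78 on pretreated macrophages, against 5.38, 5.93 and 6.59 in low arginine (2.35 ± 0.31, adjusted p = 1.36e-04). In full medium Ccl22 measured 8.52, 8.18 and 8.56, so the pretreated and full-medium levels overlapped. The other called members, named because they complete the count, were Cd36, Tgm2 and Ccl17. The Cd36 call was lost without pretreated replicate 1 or 2 or low arginine replicate 3 (adjusted p up to 0.0802). Those of Tgm2 and Ccl17 were lost without any 1 array other than pretreated replicate 1 (up to 0.267 and 0.243). The list had 5 calls without low arginine replicate 3 or pretreated replicate 2. Chil4, Cd163 and Folr2 were among the 13 members that did not pass, at 0.18, -0.01 and 0.27.

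General macrophage genes also differed. Of 24 measured, 5 were called higher and none lower: Msr1, a scavenger receptor, Itgam, an integrin chain, Lyz2, lysozyme, Cybb, a subunit of the phagocyte oxidase, and Ctss, a lysosomal protease. The median difference was 0.54, and for 13 of the 24 every pretreated array lay above every low arginine array, against 8.74% of all genes. Their mean level was 7.04, 7.33 and 6.80 on pretreated macrophages, against 6.57, 6.48 and 6.45 in low arginine, with no overlap. No member was called without pretreated replicate 2 or without low arginine replicate 3, there were 3 calls without low arginine replicate 2, and 10 without pretreated replicate 3. In sorted bulk samples, more macrophages and more RNA of these genes per macrophage cannot be told apart. The part that macrophage RNA has in the other differences was not tested. No gene passed limma's adjusted threshold among 11 of B cells, 18 of granulocytes and mast cells, 10 of dendritic cells and 20 of mesothelial and stromal cells, where 3, 0, 2 and 1 had an unadjusted p below 0.05. Of 12 genes of CD8 T and NK cells, 2 were called higher, Eomes and Cd8b1, and the list's median difference was -0.11. The Cd8b1 call was lost without pretreated replicate 2 or 3 or low arginine replicate 1 or 2 (adjusted p up to 0.289).

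**Figure D2:**
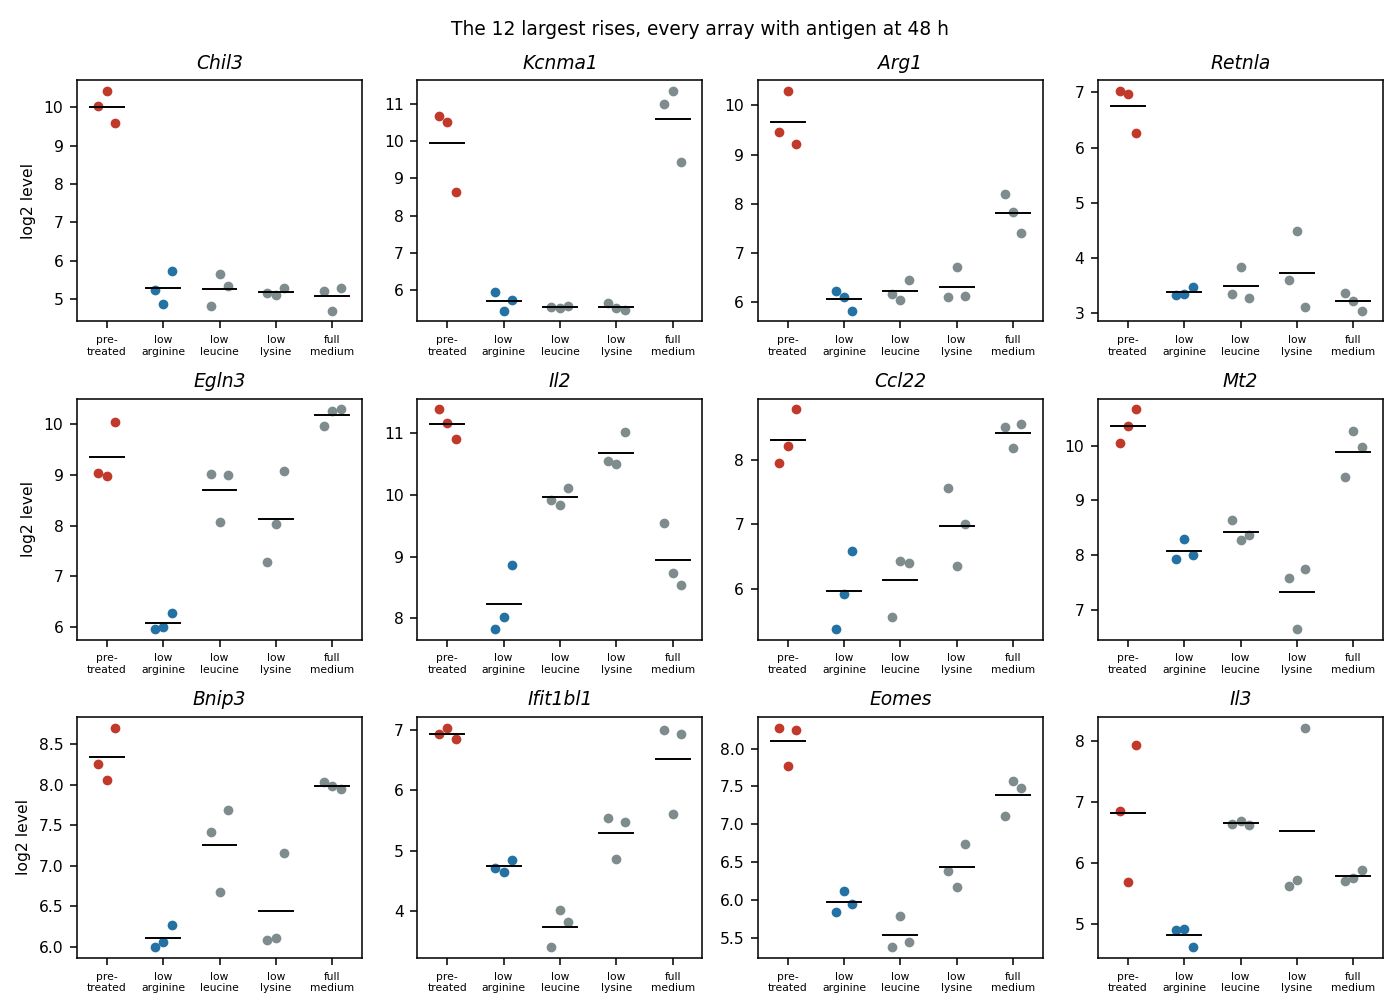
Log2 level in each array (points) and group mean (line) for the 12 largest rises, by group with antigen at 48 h. By the rule of choice, the 3 pretreated arrays lie above the 3 low arginine arrays for each gene. Chil3 and Retnla lie below every pretreated array in all other groups, while pretreated and full-medium arrays overlap for Kcnma1, Egln3, Ccl22 and Mt2.

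Most genes that answer a shortage of amino acids did not pass the test. Of 32 measured ATF4 targets, 1 was called higher and 2 lower, the median difference was -0.18, and the 95% interval lay within ±1 for 25. At an unadjusted p below 0.05 there were 4 higher and 7 lower. Pretreated arrays lay wholly above low arginine for 4 targets and wholly below for 10, against 8.74% and 9.22% of all genes. Against full medium, the median was 0.79 for pretreated macrophages and 0.87 for low arginine; both use the arrays compared here and are given side by side. Cth, an enzyme of cysteine synthesis, measured 9.06, 9.10 and 9.05 on pretreated macrophages, against 8.95, 8.84 and 9.26 in low arginine. The groups overlapped, with a difference of 0.05 (95% interval -0.54 to 0.64), and full medium was lower at 6.45, 6.83 and 6.60. Ddit3, the stress transcription factor CHOP, differed by 0.04 (-0.31 to 0.39). Asns, which makes asparagine, differed by -0.29 (-0.75 to 0.18). For Slc7a1, an arginine transporter, the difference was 0.05 (-0.23 to 0.34). For Tnfrsf19, a receptor of the TNF family that belongs to none of the gene lists, it was 0.09 (-0.27 to 0.45). A p that misses the threshold does not show that both treatments act alike, and these intervals give the sizes that remain possible.

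**Figure D3:**
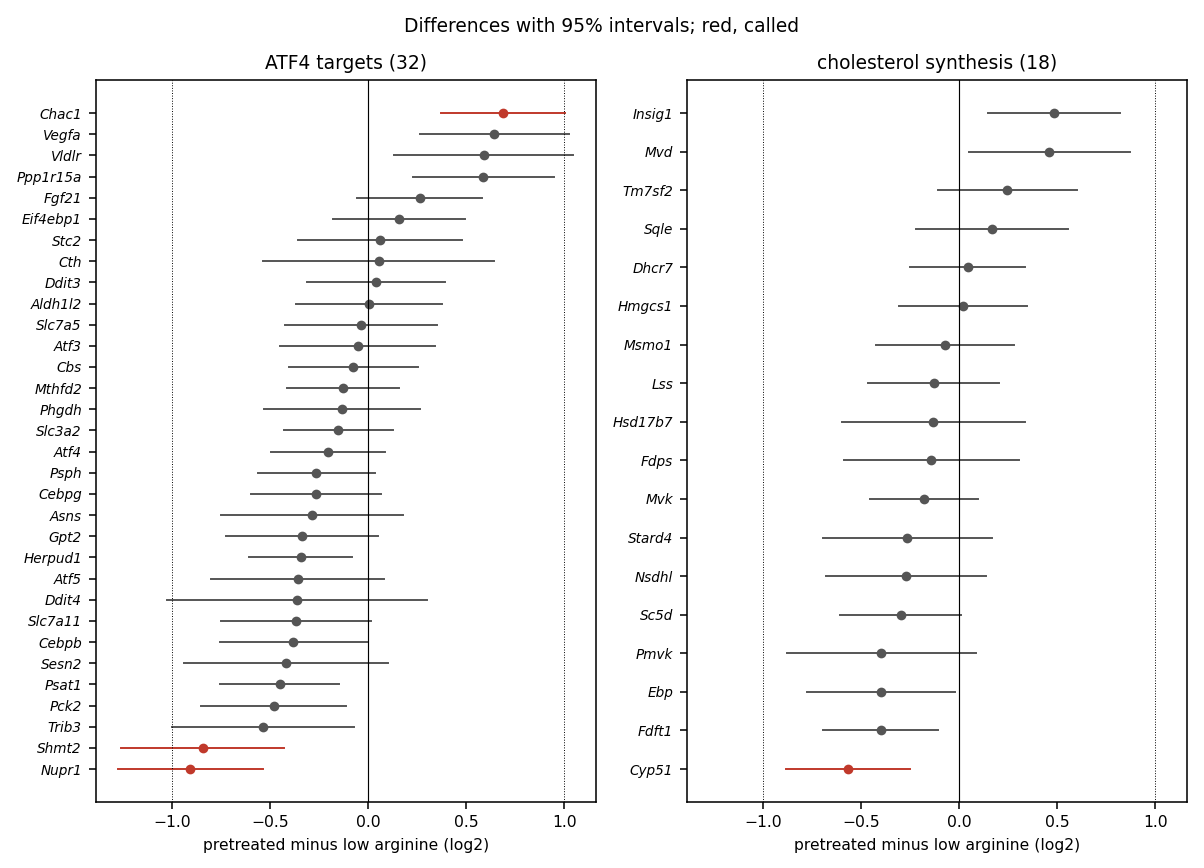
Difference, pretreated minus low arginine (log2), with its 95% interval for 32 ATF4 targets and 18 cholesterol synthesis genes, red where called and with dotted lines at -1 and 1. Most intervals include 0; Nupr1 lies lowest among the ATF4 targets at -0.91 and Chac1 highest at 0.69.

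Nupr1, a small stress-induced nuclear protein, was the ATF4 target with the largest fall. It measured 9.13, 9.15 and 9.06 on pretreated macrophages, against 10.26, 9.95 and 9.85 in low arginine, without overlap (-0.91 ± 0.18, adjusted p = 0.00474). In full medium it measured 6.72, 7.26 and 6.90, below both. Low arginine also exceeded the mean of low leucine and low lysine for this gene, by 1.48 (adjusted p = 2.18e-05). That comparison shares the low arginine arrays and called 1.59% of all genes, 1.03% higher and 0.559% lower. Chac1, which degrades glutathione, rose by 0.69 ± 0.15 (adjusted p = 0.0113). Shmt2, a mitochondrial enzyme of serine metabolism, fell by 0.84 ± 0.20 (adjusted p = 0.0174). The Chac1 call was lost without pretreated replicate 3 or low arginine replicate 1 (adjusted p up to 0.0944), and the Shmt2 call without pretreated replicate 1 or low arginine replicate 2 or 3 (up to 0.133).

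Genes that handle arginine differed in a few members. Of 16 measured amino acid transporters, Slc7a2 alone was called. This carrier of arginine measured 6.27, 6.15 and 6.21 on pretreated macrophages, against 5.11, 5.21 and 5.16 in low arginine, with no overlap (1.05 ± 0.17, adjusted p = 0.00123). In full medium Slc7a2 measured 5.05, 5.31 and 5.07. Of 15 measured genes of arginine and polyamine metabolism, Arg1 and Gatm were called higher and Azin1 lower, with a median difference of -0.02. Gatm, the first enzyme of creatine synthesis, rose by 0.86 ± 0.19 (adjusted p = 0.0123), a call lost without pretreated replicate 1 or low arginine replicate 2 (up to 0.0790). Azin1, which spares ornithine decarboxylase from degradation, fell by 0.62 ± 0.16 (adjusted p = 0.0255) and kept its call only without pretreated replicate 3 among the 6 fits that left out an array (up to 0.124). Of 18 aminoacyl-tRNA synthetases 1 was called, Vars, at -0.73 ± 0.19 (adjusted p = 0.0287). The Vars call was lost without pretreated replicate 1 or 2 or low arginine replicate 2 or 3 (up to 0.176).

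Division genes were lower on pretreated macrophages. Of 34 measured genes of G2/M and mitosis, 33 were called lower, with a median difference of -1.71; the other was Bub1 at -1.71 (adjusted p = 0.0737). All 34 had every pretreated array below every low arginine array, against 9.22% of all genes. The list's mean level was 6.48, 6.60 and 7.90 on pretreated macrophages, against 8.61, 8.59 and 8.78 in low arginine. Pretreated replicate 3 lay nearest to low arginine. In full medium the mean was 8.84, 8.94 and 8.86, and in low lysine 6.03, 7.02 and 8.03. Lower calls numbered 12, 15 and 34 without pretreated replicate 1, 2 and 3, and 23, 24 and 19 without low arginine replicate 1, 2 and 3. The mean of the macrophage list was 7.04, 7.33 and 6.80 on the pretreated arrays, and 6.43, 6.60 and 6.12 in low lysine. The part of macrophage RNA in the division levels was not tested.

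Cdc20, an activator of the anaphase-promoting complex, measured 6.26, 6.41 and 6.97 on pretreated macrophages, against 8.51, 8.41 and 8.73 in low arginine. The groups did not overlap, and Cdc20 was lower by 4.01-fold (adjusted p = 1.94e-04). Birc5, survivin, fell by 2.17 ± 0.43 (adjusted p = 0.00488). Nuf2, a kinetochore protein, fell by 2.07 ± 0.40 (adjusted p = 0.00384), and Plk1, a mitotic kinase, by 1.57 ± 0.30 (adjusted p = 0.00367). These 4 calls held in all 6 fits that left out an array. Ube2c, the ubiquitin-conjugating enzyme of the same complex, measured 6.30, 7.46 and 8.96 on pretreated macrophages, against 9.73, 9.93 and 10.20 in low arginine. Its levels did not overlap but were widely spread on pretreated macrophages (-2.38 ± 0.52, adjusted p = 0.00977). The Ube2c call was lost without pretreated replicate 1 or low arginine replicate 3 (up to 0.0865). Kif11, a spindle motor, fell by 2.32 ± 0.50 (adjusted p = 0.00879), a call lost without pretreated replicate 1 or 2 (up to 0.0745). Cdk1, the kinase that drives mitosis, fell by 1.90 ± 0.44 (adjusted p = 0.0146), a call lost without pretreated replicate 1 or 2 or low arginine replicate 1 or 3 (up to 0.113).

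**Figure D4:**
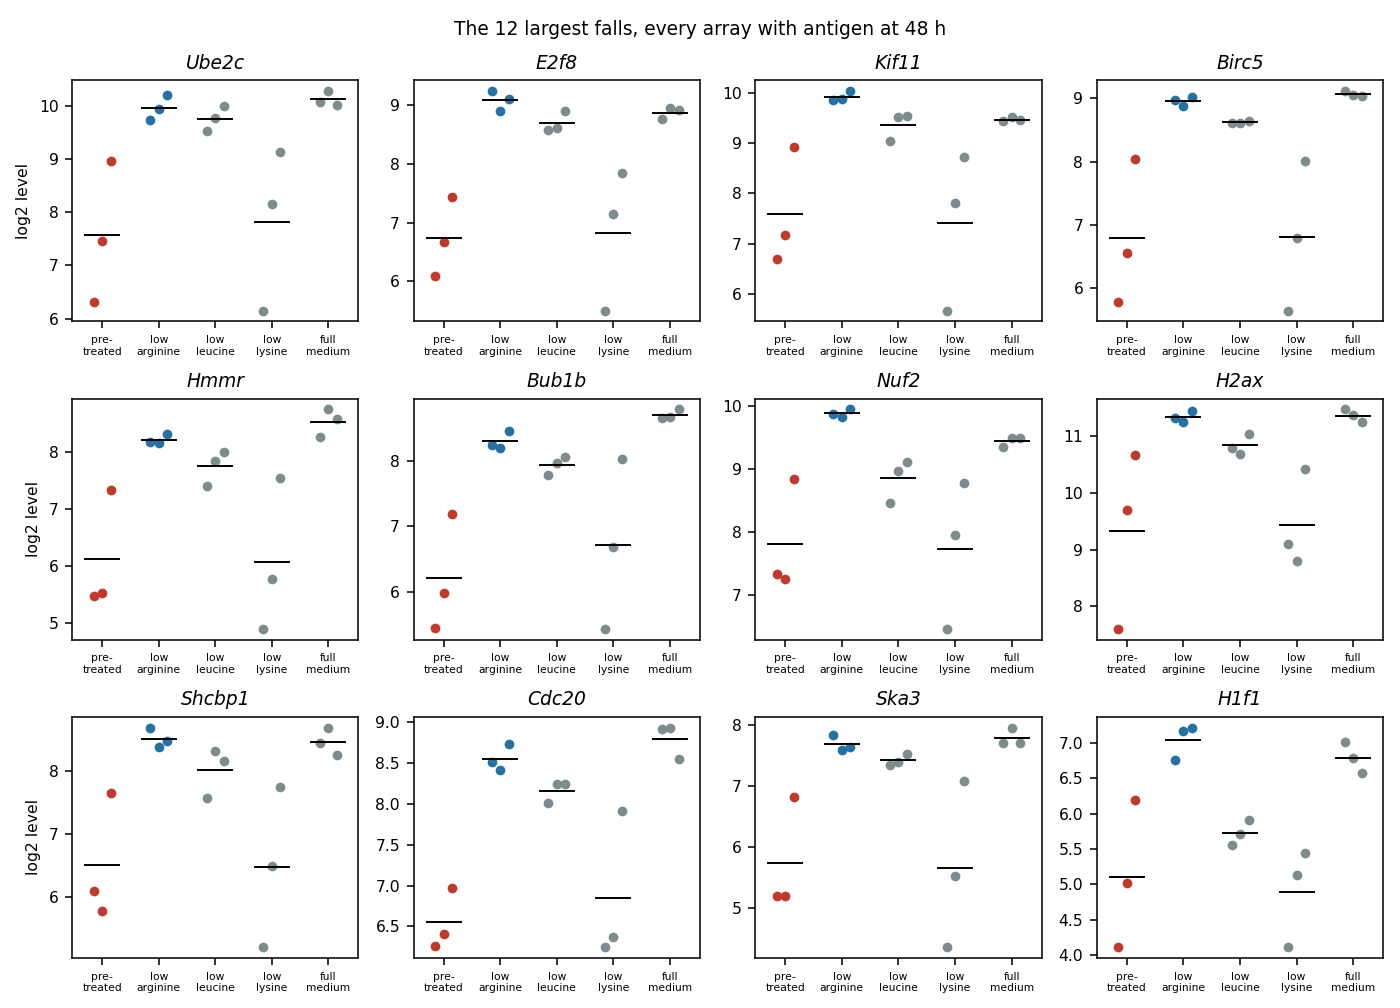
Log2 level in each array (points) and group mean (line) for the 12 largest falls, by group with antigen at 48 h. By the rule of choice, the 3 pretreated arrays lie below the 3 low arginine arrays for each gene. Replicate 3 of the pretreated group lies nearest to low arginine, and the low lysine arrays are widely spread too.

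Start regions of 3 of these genes are shown because they share a motif of mitotic genes. The cell cycle genes homology region, TTTGAA on either strand, is known to bind the complexes that time G2/M transcription. It is in capitals, as TTCAAA where it lies on the other strand, and begins at position -29 in Ube2c, -19 in Kif11 and -18 in Cdc20. The sequences are RefSeq's on GRCm38.p6: Ube2c at chr2:164769679-164769978, plus strand, Kif11 at chr19:37376132-37376431, plus strand, and Cdc20 at chr4:118437294-118437593, minus strand. Of 29 genes of the G2/M list called lower and with a promoter entry, 23 (79.3%) held TTTGAA, against 20.2% of all genes with one and 17.9% of all promoters. Of 21 genes of the G1/S list called lower and with a promoter entry, 2 (9.52%) held it. Uncalled members were not counted, so these shares describe the lists and not the calls.
Ube2c: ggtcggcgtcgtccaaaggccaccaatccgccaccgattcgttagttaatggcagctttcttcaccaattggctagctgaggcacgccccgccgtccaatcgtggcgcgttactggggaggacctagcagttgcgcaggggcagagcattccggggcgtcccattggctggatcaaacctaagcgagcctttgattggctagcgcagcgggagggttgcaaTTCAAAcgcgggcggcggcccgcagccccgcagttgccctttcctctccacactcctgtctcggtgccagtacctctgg
Kif11: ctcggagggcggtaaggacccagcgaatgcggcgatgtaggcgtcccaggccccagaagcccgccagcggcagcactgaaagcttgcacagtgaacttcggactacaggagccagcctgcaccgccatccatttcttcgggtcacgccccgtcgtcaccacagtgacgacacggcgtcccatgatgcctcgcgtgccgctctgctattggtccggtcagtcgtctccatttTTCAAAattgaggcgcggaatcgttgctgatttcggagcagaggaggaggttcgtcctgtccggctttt
Cdc20: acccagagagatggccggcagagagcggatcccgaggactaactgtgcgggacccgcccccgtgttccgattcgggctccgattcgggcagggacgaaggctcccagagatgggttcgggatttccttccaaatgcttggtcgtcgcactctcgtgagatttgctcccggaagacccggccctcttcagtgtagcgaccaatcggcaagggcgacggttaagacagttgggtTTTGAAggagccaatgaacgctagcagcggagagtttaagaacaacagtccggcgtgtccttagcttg

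Genes of G1/S and DNA replication were lower too. Of 37 measured, 25 were called lower and none higher, with a median difference of -0.87, against 1.85% of all genes called lower. Uhrf1, which keeps DNA methylation through replication, measured 7.77, 7.96 and 8.61 on pretreated macrophages, against 9.65, 9.54 and 9.65 in low arginine, without overlap (-1.50 ± 0.21, adjusted p = 1.94e-04). Cdt1, which licenses replication origins, fell by 1.12 ± 0.19 (adjusted p = 0.00138). E2f2, an E2F transcription factor, fell by 1.29 ± 0.21 (adjusted p = 9.72e-04). E2f8, a repressive member of that family that belongs to none of the gene lists, fell by 2.35 ± 0.37 (adjusted p = 7.80e-04). The G1/S list had 11, 12 and 30 lower calls without pretreated replicate 1, 2 and 3, and 15, 18 and 14 without low arginine replicate 1, 2 and 3. Against full medium, the median over this list was -0.86 for pretreated macrophages and -0.01 for low arginine.

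**Figure D5:**
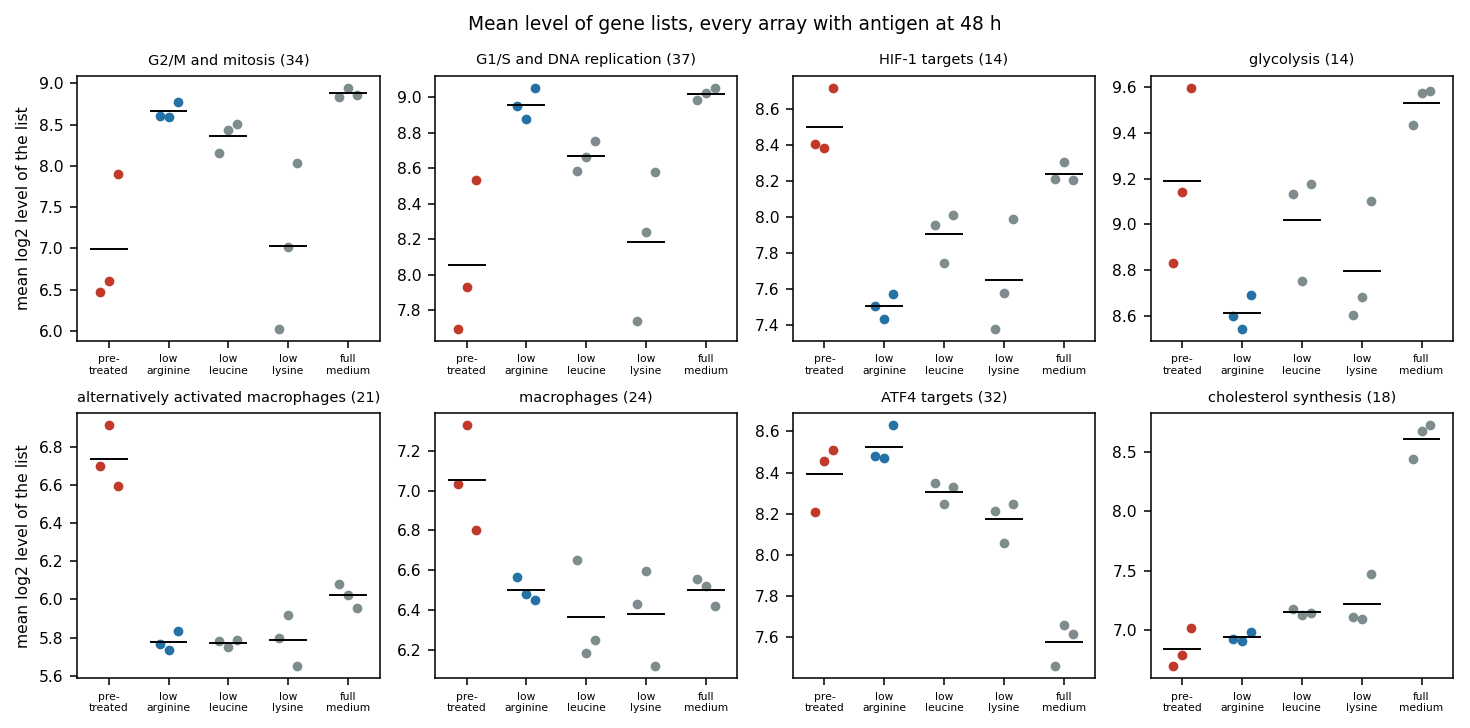
Mean log2 level of the measured genes of 8 lists in each array (points) and group mean (line), by group with antigen at 48 h; the number of genes is in each title and each vertical axis has its own range. Pretreated and low arginine arrays do not overlap for the 2 division lists, HIF-1 targets, glycolysis and the 2 macrophage lists, and overlap for ATF4 targets and cholesterol synthesis.

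Some genes of low oxygen and glucose use were called higher on pretreated macrophages, and none lower. HIF-1 is a transcription factor stabilized when oxygen is low, and prolyl hydroxylases mark it for degradation. Of 14 measured HIF-1 targets, 9 were called higher and none lower, with a median difference of 0.69. For 13 of them the groups did not overlap, against 8.74% of all genes. Their mean level was 8.40, 8.39 and 8.72 on pretreated macrophages, against 7.51, 7.43 and 7.58 in low arginine, and 8.21 to 8.31 in full medium. Calls numbered 8, 6 and 5 without pretreated replicate 1, 2 and 3, and 6, 6 and 7 without low arginine replicate 1, 2 and 3. Egln3, one of the prolyl hydroxylases, measured 9.04, 8.98 and 10.05 on pretreated macrophages, against 5.96, 6.002 and 6.26 in low arginine. The groups lay far apart (3.28 ± 0.33, adjusted p = 3.54e-06). In full medium Egln3 was at 9.97, 10.26 and 10.29, and low arginine lay below the mean of low leucine and low lysine by -2.34 (adjusted p = 9.50e-05). Bnip3, a mitochondrial protein of mitophagy, measured 8.26, 8.06 and 8.70 on pretreated macrophages, against 5.997, 6.06 and 6.27 in low arginine, without overlap (2.23 ± 0.25, adjusted p = 1.52e-05). Ndrg1, a stress-responsive protein, rose by 1.47 ± 0.23 (adjusted p = 8.12e-04).

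Start regions of Egln3 and Bnip3 are shown for the core of the hypoxia response element, ACGTG on either strand, which HIF-1 is known to bind. It is in capitals, at position -229 in Egln3 and at -108 and -107 in Bnip3, where a palindrome gives overlapping matches on both strands. The sequences are RefSeq's on GRCm38.p6: Egln3 at chr12:54203825-54204124, minus strand, and Bnip3 at chr7:138909457-138909756, minus strand. Of 8 HIF-1 targets called higher and with a promoter entry, 6 held the motif, against 21.8% of all genes with one and 19.6% of all promoters. The list is of known HIF-1 targets and its uncalled members were not counted, so this share describes the list and not the calls.
Egln3: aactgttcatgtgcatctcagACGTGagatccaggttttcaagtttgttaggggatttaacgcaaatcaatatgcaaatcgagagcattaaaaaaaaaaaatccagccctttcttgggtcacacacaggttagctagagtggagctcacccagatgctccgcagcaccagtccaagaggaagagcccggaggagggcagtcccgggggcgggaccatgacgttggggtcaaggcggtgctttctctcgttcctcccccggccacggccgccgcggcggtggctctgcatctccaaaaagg
Bnip3: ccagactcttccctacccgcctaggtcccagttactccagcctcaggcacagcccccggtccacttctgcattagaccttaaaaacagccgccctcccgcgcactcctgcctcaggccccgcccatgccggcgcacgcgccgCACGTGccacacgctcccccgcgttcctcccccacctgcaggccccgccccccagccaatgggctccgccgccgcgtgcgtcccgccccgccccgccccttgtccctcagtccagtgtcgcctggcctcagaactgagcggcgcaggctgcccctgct

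Of 14 measured glycolysis genes, 7 were called higher and none lower, with a median difference of 0.55. Relative to full medium, the list's median was -0.36 for pretreated macrophages and -0.94 for low arginine, given side by side. The list's mean level lay below every full-medium array in pretreated replicates 1 and 2, and above them in replicate 3. Slc2a1, a glucose transporter, measured 9.87, 10.23 and 10.55 on pretreated macrophages, against 9.34, 9.23 and 9.24 in low arginine, without overlap (0.94 ± 0.17, adjusted p = 0.00242). Full medium held 10.27, 10.18 and 10.33 and overlapped the pretreated arrays. The other glycolysis calls depended on single arrays. The list had 7, 4 and 2 calls without pretreated replicate 1, 2 and 3, and 2, 1 and 3 without low arginine replicate 1, 2 and 3. It had 3 when only the 6 compared arrays were fitted. Ldha, lactate dehydrogenase, differed by 0.07 (95% interval -0.24 to 0.38). Of 18 genes of oxidative phosphorylation none was called by limma (3 at an unadjusted p below 0.05), with a median difference of -0.23, and 17 of the differences were negative.

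Il2 was the cytokine with the largest rise. This T cell growth factor measured 11.39, 11.18 and 10.91 on pretreated macrophages, against 7.83, 8.02 and 8.86 in low arginine. The groups did not overlap (2.92 ± 0.29, adjusted p = 2.22e-06), and full medium lay at 9.54, 8.74 and 8.55. Low arginine was also below the mean of low leucine and low lysine, by -2.09 (adjusted p = 7.31e-05). Of 26 measured helper cytokines and chemokines, 4 were called higher and none lower, with a median difference of 0.17. Ccl4, a chemokine, rose by 1.74 ± 0.20 (adjusted p = 2.00e-05), and Tnfsf11, RANK ligand, by 1.23 ± 0.17 (adjusted p = 1.36e-04). Il3, a growth factor of myeloid cells, measured 6.86, 5.68 and 7.93 on pretreated macrophages, against 4.90, 4.92 and 4.62 in low arginine (2.01 ± 0.47, adjusted p = 0.0154). Its pretreated levels were widely spread, and its call was lost without pretreated replicate 1 or 3 or low arginine replicate 1 or 3 (up to 0.0961). Ifng, interferon gamma, and Il4 were not called, at 0.33 and 0.08.

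Few genes of T cell activation were called: 2 higher, Nfkbid and Nr4a2, and 2 lower, Irf4 and Lag3, of 27, with a median difference of -0.10. Over all genes, 1.52% were called higher and 1.85% lower. The Nfkbid call was lost when only the 6 compared arrays were fitted (adjusted p = 0.102), where no member of the list was called higher. The Nr4a2 call was lost without pretreated replicate 2 or 3 or low arginine replicate 1 or 2 (adjusted p up to 0.119). The Irf4 call was lost without pretreated replicate 1 or 2 or low arginine replicate 3 (up to 0.123). Il2ra, a chain of the IL-2 receptor, differed by -0.12 (95% interval -0.39 to 0.15), and Cd69, an early activation marker, by 0.18 (-0.08 to 0.44). Gzmb, granzyme B, measured 8.85, 8.70 and 10.15 on pretreated macrophages, against 8.41, 8.99 and 8.94 in low arginine, and its levels overlapped (0.46, interval -0.50 to 1.41). Tigit, an inhibitory receptor, measured 6.28, 6.72 and 7.49 on pretreated macrophages, against 8.63, 8.44 and 8.66 in low arginine, without overlap (-1.74 ± 0.33, adjusted p = 0.00336). It belongs to a list of regulatory T cells and anergy, where 2 of 20 measured genes were called lower and none higher, with a median difference of -0.16. Cd28, the costimulatory receptor, fell by 0.67 ± 0.13 (adjusted p = 0.00577). Lag3, another inhibitory receptor, fell by 0.84 ± 0.20 (adjusted p = 0.0160), a call lost without pretreated replicate 1 or low arginine replicate 2 or 3 (up to 0.134). Of 18 genes of naive and quiescent T cells, 3 were called higher and none lower, with a median difference of 0.27. S1pr1, which lets lymphocytes leave lymph nodes, rose by 1.29 ± 0.22 (adjusted p = 0.00138), and Klf3, a transcription factor, by 0.95 ± 0.14 (adjusted p = 4.47e-04). The call of the other, Pik3ip1, an inhibitor of PI3 kinase, was lost without pretreated replicate 2 or low arginine replicate 1 or 3 (up to 0.109).

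Other genes also differed widely. Kcnma1, the pore-forming subunit of a potassium channel opened by calcium, measured 10.68, 10.54 and 8.63 on pretreated macrophages, against 5.95, 5.43 and 5.72 in low arginine (4.25 ± 0.41, adjusted p = 1.88e-06). It was high in every pretreated and full-medium array and near its low arginine level with low leucine and low lysine, at means of 5.53 and 5.52. That split is the same as the split of submitter IDs. Eomes, a transcription factor of cytotoxic and memory T cells, measured 8.28, 7.78 and 8.25 on pretreated macrophages, against 5.85, 6.12 and 5.94 in low arginine, without overlap (2.13 ± 0.19, adjusted p = 3.97e-07). Ermn, a cytoskeletal protein known from oligodendrocytes, measured 7.11, 6.52 and 6.46 on pretreated macrophages, against 4.73, 5.18 and 4.58 in low arginine (1.87 ± 0.26, adjusted p = 2.22e-04). In full medium Ermn lay at 4.11, 4.75 and 4.34. Mt2, a metallothionein, rose by 2.28 ± 0.28 (adjusted p = 4.57e-05). Its means were 9.89 in full medium, 8.43 in low leucine and 7.33 in low lysine, so its levels also followed the split of submitter IDs. Of 19 interferon response genes, 4 were called higher and none lower, against 1.52% and 1.85% of all genes. The list's median difference was 0.13, with only 2 calls without pretreated replicate 2 or without low arginine replicate 1 or 3. Irf7, a transcription factor of that response, rose by 0.91 ± 0.19 (adjusted p = 0.00706).

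Lipid synthesis genes were mostly not called either. Of 18 measured genes of cholesterol synthesis, 1 was called, with a median difference of -0.14, and all 18 intervals lay within ±1. Against full medium, the median was -1.78 for pretreated macrophages and -1.68 for low arginine, given side by side. Hmgcs1, an early enzyme of the pathway, measured 7.46, 7.53 and 7.85 on pretreated macrophages, against 7.61, 7.66 and 7.51 in low arginine, with 10.12, 10.44 and 10.42 in full medium. The compared groups overlapped (0.02, interval -0.31 to 0.34). Cyp51, which removes a methyl group from lanosterol, was called at -0.57 ± 0.15 (adjusted p = 0.0380), and that call was lost without any single one of the 6 arrays (up to 0.130). Of 13 genes of fatty acid synthesis and desaturation none was called by limma (1 at an unadjusted p below 0.05), with all 13 intervals within ±1. Scd1, a desaturase, differed by 0.39 (-0.21 to 0.99), and Fads2, another, by -0.28 (-0.72 to 0.15). Abca1 and Abcg1, transporters that export cholesterol from cells and targets of the LXR receptors, rose by 1.46 ± 0.17 (adjusted p = 2.52e-05) and 0.73 ± 0.14 (adjusted p = 0.00320), as 2 of 9 LXR targets. Among all genes, 1.52% were called higher.

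The same pretreatment was measured against full medium at 72 h on another platform, with no array shared, where 9.69% of genes were called, 3.78% higher and 5.91% lower. Low arginine was not among the 72 h groups. Of 292 genes called higher here with a 72 h value, 70.9% were higher on pretreated macrophages at 72 h too, against 53.8% of all genes, and 61 (20.9%) were called higher there, against 3.81%. Of 368 genes called lower, 82.1% were lower at 72 h, against 46.0% of all genes, and 98 (26.6%) were called lower, against 5.998%. Il2 was higher by 4.74 at 72 h (adjusted p = 0.00181) and Slc7a2 by 2.17 (adjusted p = 0.0171). Chil3 was higher there by only 0.75 (adjusted p = 0.0124). Arg1, at 2.15, and Retnla, at 0.35, were not called at 72 h (adjusted p = 0.0851 and 0.172). The median over the macrophage list was 0.13 at 72 h, against 0.02 over all genes. Cdc20 fell by 1.45 at 72 h (adjusted p = 0.0300). Kif11, E2f2 and E2f8 differed by -0.94, -0.60 and -1.03 but were not called (adjusted p = 0.179, 0.322 and 0.129). Egln3, higher here than in low arginine, fell by 1.80 at 72 h against full medium (adjusted p = 0.0239), and Kcnma1 differed by 0.12 (adjusted p = 0.493). Against full medium at 48 h, the differences were -0.82 for Egln3 and -0.65 for Kcnma1, neither of them called (limma adjusted p = 0.147 and 0.415).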

How the data were processed

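RNA of sorted CD4+ cells was measured on Affymetrix arrays from 100 ng of RNA, 23 MoGene-2_0-st arrays at 48 h and 9 HT_MG-430_PM arrays at 72 h. Per the submitters' processing notes, the authors used RMA (Affymetrix Expression Console 1.1), and the deposited numbers are log2 values, 1 for each probe set and array. Probe filters, and which arrays were normalized together, are not given in the sources used here. Array medians at 48 h lay between 5.44 and 5.75.

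Probe sets were named from the platform annotation: at 48 h, 23521 of 41345 stood for 1 gene, 1814 for several and 16010 for none. The probe set with the highest mean represented each of 22180 genes. All 8 groups at 48 h were fitted together with limma 3.58.1 in R 4.3.3 (lmFit, eBayes with an intensity trend), two-sided, with Benjamini-Hochberg adjustment over all genes. The 72 h arrays were fitted apart. Gene lists are described by counts and medians, with no test of a list. Tables and plots used Python 3.11.15, pandas 2.3.3 and matplotlib 3.10.9. Alternatives changed the arrays fitted, the normalization, the filter on low genes, the variance model, the choice of probe set and the replicate block, or left out each array in turn.

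The members and lists were chosen with earlier results of these data known. Named genes were the 12 largest called rises and falls whose groups did not overlap, without clone or model names, up to 4 called members of each list by moderated t, and a set of chosen genes; a few others complete small counts and were named after their values were seen. Promoters are RefSeq's on GRCm38.p6, from 250 bases before to 50 after each start. On data simulated 5 times for this comparison, with 200 of 22180 genes altered, the fit called 35.5%, 86.9% and 99.4% of 1.5-, 2- and 4-fold changes and made 6 false calls on average.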

Additional observations from a re-analysis of the deposited data

How the results depend on the processing

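Under the 14 alternatives tried, no named gene changed direction where it was called in the main fit or in that alternative. Changes of direction in genes called in neither were not counted. Of 76 named genes that were called, 40 were called under every alternative that kept the gene. Among the alternatives that kept every array, 54 were. Fitted on the 6 compared arrays alone, 456 genes were called, 215 higher and 241 lower on pretreated macrophages, of which 412 were among the 748. Leaving out 1 array at a time gave 383 to 796 calls, 194 to 284 higher and 159 to 512 lower. The lowest count of lower calls came without pretreated replicate 1 and the highest without pretreated replicate 3. The other alternatives moved each count by less than 1.5 times, with 609 calls after centring arrays on their medians and 860 after keeping genes above the median level. With the replicate number as a block, 853 genes were called, 374 higher and 479 lower. Replicate numbers share only a number: deviations of same-numbered arrays correlated at 0.03, -0.14 and 0.24. Of 420 recomputed list medians 25 moved by more than the spread between replicates, and 18, in 8 lists, changed sign. The cause of these changes was not tested.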

Other observations

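Some gene families were counted after their values were seen, so their counts are descriptions, and several members also belong to the lists above, such as Kif11 and Kif23 (G2/M), E2f2 (G1/S) and Gbp3 (interferon response). Over all genes, 1.52% were called higher and 1.85% lower. Of 32 measured histone genes, 8 were called lower on pretreated macrophages and none higher, with a median difference of -0.47. H1f1, a linker histone, measured 4.12, 5.02 and 6.19 on pretreated macrophages, against 6.76, 7.16 and 7.21 in low arginine, without overlap (-1.93 ± 0.37, limma adjusted p = 0.00407). Of 8 E2F genes, 5 were called lower and 1 higher. Of 38 kinesins, motor proteins of microtubules, 11 were called lower and 3 higher.

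Of 9 genes of the p200 family, interferon-inducible proteins that bind nucleic acids, 2 were called higher. Ifi208 measured 7.85, 8.39 and 8.01 on pretreated macrophages, against 6.395, 6.31 and 6.53 in low arginine, and 7.23, 6.80 and 7.30 in full medium. Ifi209 measured 7.80, 8.32 and 7.67 on pretreated macrophages, against 6.31, 6.45 and 5.80 in low arginine. Neither gene's groups overlapped, with differences of 1.67 ± 0.27 and 1.74 ± 0.31. Of 10 guanylate-binding proteins, which act in cell-autonomous defence, 3 were called higher, and of 73 small nucleolar RNAs 4, against 1.52% of all genes. Both Mt1 and Mt2, metal-binding metallothioneins, were called higher among 4 measured. Mt1 measured 8.81, 8.80 and 8.998 on pretreated macrophages, against 7.37, 7.44 and 7.31 in low arginine, without overlap. Full medium, at 8.69, 9.39 and 8.89, overlapped the pretreated arrays. Low leucine and low lysine, at means of 7.40 and 7.31, lay near low arginine. Like that of Kcnma1, this split of Mt1 levels is the same as the split of submitter IDs. At 72 h Mt1 fell by 2.31 on pretreated macrophages against full medium (limma adjusted p = 3.74e-04).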
